A study of Mus musculus with 6 samples.

Results

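Integrins are paired alpha and beta receptors that hold cells to the extracellular matrix or to other cells, and each pair has its own ligands. Inside the cell, talins and kindlins bind the beta tail and switch the receptor on, and vinculin, paxillin, zyxin and the ILK, PINCH and parvin complex tie it to actin filaments. The kinases FAK and SRC pass on the signal. In the mammary gland, basal cells stand on laminin through alpha 6 beta 4 hemidesmosomes, stromal cells grip collagen and fibronectin, and leukocytes carry their own beta 2 and beta 7 receptors.

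The genes described here are 40 named members, 25 integrin subunits and 15 adaptors and kinases of focal adhesions, out of 22180 genes measured. The members were chosen by name and grouped by ligand or role. They and the gene lists below were chosen with earlier results of these data known. Each member was read from the probe set that carries its symbol alone, the brightest one where there were several. Of the 40, 36 had such a probe set. Itga10, Ptk2, Ilk and Lims2 did not and are not analysed here. Probe sets shared with another gene, among them ones that list Itgb4, Itga4, Ilk or Lims2, were not read.

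Whole inguinal mammary glands, with epithelium, fat, stroma, vessels and blood cells together, were taken from C57BL/6J mice at 4 weeks of age. The 3 knockout mice carried Dermo1Cre with Mt1-mmp(fl/fl), so that Mt1-mmp (Mmp14, a membrane-anchored matrix metalloproteinase) was to be deleted in cells in which the Dermo1 (Twist2) locus drives Cre, chiefly mesenchymal cells. The 3 wild-type mice were Mt1-mmp(+/+) littermates, and their label gives no Cre, so an effect of Cre cannot be told apart from the loss of Mmp14. Epithelium and leukocytes of the knockout gland are not the labelled target of the deletion. Each mouse gave 1 array, and n = 3 per group throughout.

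Mmp14 read 8.57, 8.55 and 8.75 log2 units in knockout glands and 11.18, 10.55 and 10.90 in wild-type glands. It fell by 2.25 ± 0.17 (SE, limma adjusted p = 0.000454), which goes with the labels. Where its probes lie relative to the deleted part was not analysed here. Array medians lay between 3.77 and 3.89 log2 units. A level below the 33rd percentile of gene levels (2.68) is treated here as too low to size a change. Of the measured markers of mammary epithelium and fat, 4 averaged less than that in knockout glands and more in wild-type glands. They were the luminal genes Elf3 (2.23 in knockout glands, 4.41 in wild-type glands) and Cldn7 (2.62 in knockout glands, 3.83 in wild-type glands) and the basal keratins Krt14 (2.35 in knockout glands, 5.49 in wild-type glands) and Krt15 (2.66 in knockout glands, 5.43 in wild-type glands). Wild type 1 stood apart in skeletal muscle: the log2 of the summed linear signal of 12 muscle genes was 8.15 to 8.23 in knockout glands, and 10.34, 8.09 and 7.74 in wild-type glands 1 to 3.

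Most of these adhesion genes read lower in the knockout gland. Of the 36 measured members, 17 fell, 2 rose and 17 did not pass the test, which was limma's moderated test with p-values adjusted over all 22180 genes at a threshold of 0.05. The same test called 7.2% of all genes lower and 5.05% higher, and of these calls 58.7% were falls, or 43.0% with each array centred on its median. With that centring, 16 members fell and 3 rose. Of the members, 32 had a negative difference (knockout minus wild type), and their median was -0.61 log2 units, against 0.03 for all genes. In 23 members every knockout array lay below every wild-type array, as did 15.4% of all genes, and in 3 members every knockout array lay above, as did 17.2%. Without wild type 1, the array rich in muscle RNA, 13 members fell and 1 rose.

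**Figure D1:**
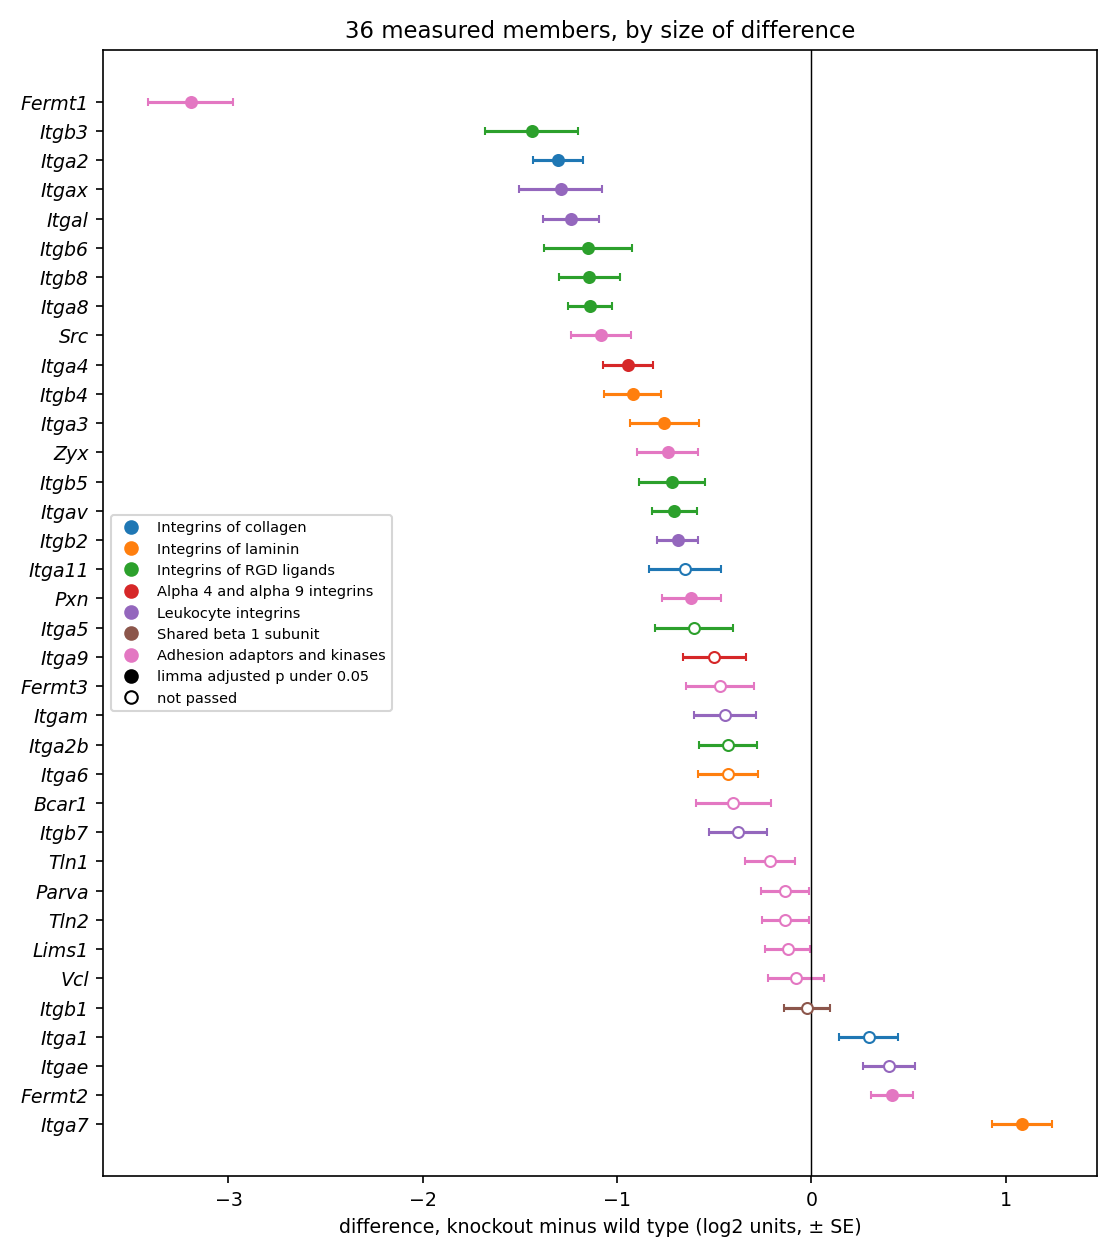
Difference between stromal knockout and wild type for the 36 measured members in log2 units (x axis, points with standard error bars), ordered from the largest fall (Fermt1, -3.19) to the largest rise (Itga7, 1.09). Colours give the group of the member, filled points passed the limma threshold and open points did not, and 32 points lie left of 0.

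Because the tissue was whole, fewer cells of a type and less RNA per cell cannot be told apart. Marker lists of the cells in the gland differed between the groups as well. All 12 measured luminal epithelial markers fell, and the log2 of their summed linear signal was 8.80 to 9.17 in knockout glands and 11.32 to 11.53 in wild-type glands. Of 9 basal markers, 7 fell (summed signal 9.37 to 9.63 in knockout glands, 10.16 to 10.39 in wild-type glands). Dst, which did not pass, read 8.99 in knockout glands and 9.16 in wild-type glands and weighs on that sum. Trp63, the other basal marker that did not pass, read 5.47 and 5.69, with overlapping groups (limma adjusted p = 0.584). The mean log2 signal of the 9 was 4.40 to 4.88 in knockout glands and 6.27 to 6.63 in wild-type glands. Of 11 fibroblast markers, 6 fell (13.97 to 14.11 in knockout glands, 14.36 to 14.63 in wild-type glands). Of 9 endothelial markers, 3 rose (12.04 to 12.49 in knockout glands, 11.84 to 11.85 in wild-type glands). Of 8 adipocyte markers, 2 rose (14.76 to 14.85 in knockout glands, 14.58 to 14.59 in wild-type glands), and in 6 every knockout array lay above every wild-type array. The part of these shifts in the integrin results was not tested.

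**Figure D2:**
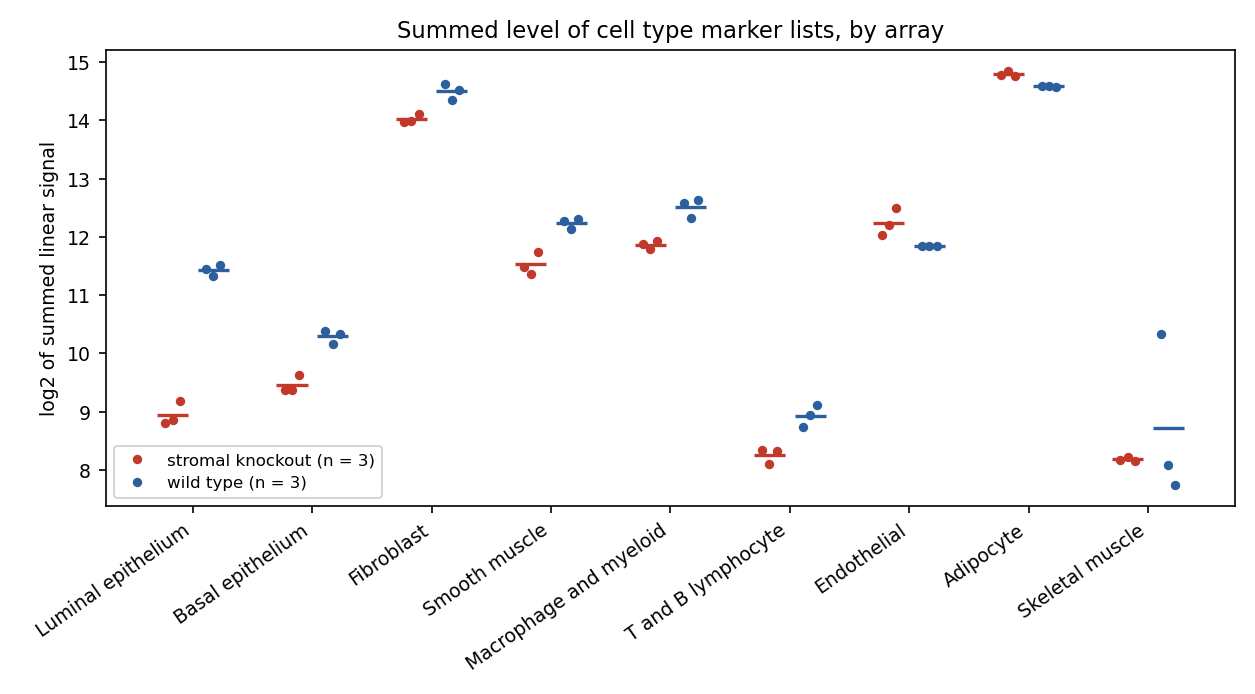
Log2 of the summed linear signal of each cell type marker list on each array (y axis), with 3 knockout arrays left and 3 wild-type arrays right in each list, replicates 1 to 3 from left to right, and bars at the means. Luminal markers lie between 8.80 and 9.17 in knockout glands and between 11.32 and 11.53 in wild-type glands, and wild type 1 is alone at 10.34 for skeletal muscle.

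Among the collagen receptors, the alpha 2 subunit fell and its relatives did not pass. Itga2, which with beta 1 forms a collagen receptor of epithelial cells and platelets (probe set 17296355), read 5.66, 5.87 and 5.89 log2 units in knockout glands and 6.95, 7.15 and 7.23 in wild-type glands. The groups did not overlap, with the highest knockout array more than 1 unit below the lowest wild-type array. The fall was 1.30 ± 0.13 (SE, 2.47-fold, limma adjusted p = 0.00118) and passed in every alternative and with any 1 array left out. Itga11, a collagen receptor subunit of fibroblasts, read 5.83, 6.48 and 6.24 in knockout glands and 6.87, 6.64 and 6.99 in wild-type glands. Its groups did not overlap, but the difference of -0.65 ± 0.19 did not pass (limma adjusted p = 0.0607). Itga1, a collagen receptor subunit of stromal and smooth muscle cells, averaged 8.63 ± 0.26 in knockout glands and 8.34 ± 0.06 in wild-type glands (SD), and these values overlapped (limma adjusted p = 0.268).

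The laminin receptor subunits moved in opposite directions. Itgb4, the beta 4 subunit of hemidesmosomes, read 5.10, 4.96 and 5.05 log2 units in knockout glands and 6.00, 5.69 and 6.17 in wild-type glands. Its fall was 0.92 ± 0.15 (SE, 1.89-fold, limma adjusted p = 0.00777). Itga3, an epithelial laminin receptor subunit, read 5.72, 5.37 and 5.96 in knockout glands and 6.50, 6.22 and 6.59 in wild-type glands. It fell by 0.76 ± 0.18 (limma adjusted p = 0.0317), a call lost without knockout 1 (limma adjusted p = 0.0748), knockout 2 (0.0876), wild type 1 (0.103) or wild type 3 (0.100). Itga6, the alpha partner of beta 4 and a surface marker used to sort mammary basal cells, is also found on endothelium. It averaged 8.52 ± 0.28 in knockout glands and 8.95 ± 0.01 in wild-type glands (SD), and its difference of -0.43 ± 0.15 did not pass (limma adjusted p = 0.120). The signals of the 2 partners thus lay below wild type by unequal amounts, -0.92 for Itgb4 and -0.43 for Itga6, a gap that was not tested.

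Itga7 went the other way and was the larger of the 2 rises among the members. It encodes a laminin receptor subunit known from muscle, where it pairs with beta 1 (probe set 17238605). The knockout glands read 7.87, 8.19 and 7.97 log2 units and the wild-type glands 6.95, 6.69 and 7.13. All knockout arrays lay above all wild-type arrays, and the rise was 1.09 ± 0.15 (SE, 2.12-fold, limma adjusted p = 0.00469). It passed in all alternatives and without any 1 array, with a rise of 1.10 without wild type 1 (limma adjusted p = 0.0224). Of 12 skeletal muscle markers, 1 passed, the intermediate filament gene Des, which is also a smooth muscle and pericyte gene. It averaged 7.33 in knockout glands and 6.38 in wild-type glands. Of 7 smooth muscle markers, Des again rose and 3, Acta2, Tagln and Cnn1, fell. The log2 of the summed signal was 11.36 to 11.73 in knockout glands and 12.14 to 12.31 in wild-type glands. Of the 9 basal epithelial markers, 7 fell as well. Whether the rise of Itga7 lies in muscle, vessel or other cells was not tested.

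The receptors of the RGD motif (arginine, glycine, aspartate), carried by fibronectin, vitronectin and latent TGF-beta, mostly fell. Of 8 measured subunits, 6 fell and 0 rose, and all 8 had an unadjusted limma p under 0.05 in the direction of a fall, as did 13.4% of all genes, with 13.1% in the direction of a rise. The group median was -0.93 log2 units, against 0.03 for all genes. The differences ran from -1.44 for Itgb3 to -0.43 for Itga2b.

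Itgb3, the beta 3 chain of the vitronectin receptor and of the platelet fibrinogen receptor (probe set 17257235), fell furthest as read among the integrins, with Itga2, Itgax and Itgal within its standard error. It read 4.82, 5.35 and 5.71 log2 units in knockout glands and 7.02, 6.53 and 6.64 in wild-type glands. The fall was 1.44 ± 0.24 (SE, 2.71-fold, limma adjusted p = 0.00859), with the knockout arrays spread over more of the scale than the wild-type arrays but all below them. Its partners were Itgav, the shared alpha chain of the vitronectin-type receptors, and Itga2b, the alpha chain of platelets. Itgav read between 7.92 and 8.19 in knockout glands and between 8.72 and 8.76 in wild-type glands, a fall of 0.71 ± 0.12 (1.63-fold, limma adjusted p = 0.00865). A second Itgav probe set read only 1.61 in knockout glands and 1.36 in wild-type glands, below the level at which changes were sized, and the mean of both sets lost the call (difference -0.23, limma adjusted p = 0.227). Itga2b averaged 3.78 ± 0.26 in knockout glands and 4.21 ± 0.02 in wild-type glands (SD), and did not pass (limma adjusted p = 0.107). Of 5 platelet markers, among them Itga2b itself, 0 passed the limma test and 1, Itga2b, had an unadjusted p under 0.05.

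Other beta partners of the alpha v chain fell too. Itgb8, which with alpha v frees TGF-beta from its latent complex, read 5.05, 4.59 and 5.06 log2 units in knockout glands and 6.06, 5.97 and 6.11 in wild-type glands. All knockout arrays lay below all wild-type arrays, and the fall was 1.14 ± 0.15 (SE, 2.21-fold, limma adjusted p = 0.00408). Itgb5, another vitronectin receptor chain of fibroblasts, adipocytes and epithelium, read 7.51, 7.92 and 8.02 in knockout glands and 8.74, 8.42 and 8.44 in wild-type glands. Its fall of 0.72 ± 0.17 (limma adjusted p = 0.0323) did not hold when knockout 1, knockout 2 or any wild-type array was left out (limma adjusted p 0.0622 to 0.107). With the replicate number as a block it was also lost (limma adjusted p = 0.0804). Itgb6, an epithelial chain that also activates TGF-beta, averaged 1.50 in knockout glands and 2.65 in wild-type glands, both under 2.68. It passed (limma adjusted p = 0.0162), but the size of its fall cannot be read at that level, and the call was lost without knockout 1 (0.0543) or knockout 2 (0.0512).

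The alpha chains that pair with beta 1 to bind RGD ligands differed in the same direction. Itga8, a receptor subunit for nephronectin found on mesenchymal and smooth muscle cells, read 5.89, 5.76 and 6.00 log2 units in knockout glands and 7.00, 7.00 and 7.06 in wild-type glands. Replicates were tight in both groups, and the fall was 1.14 ± 0.11 (SE, 2.20-fold, limma adjusted p = 0.00122). Itga5, the classical fibronectin receptor chain, read 6.44, 6.61 and 6.92 in knockout glands and 7.55, 6.89 and 7.34 in wild-type glands. The highest knockout array just overlapped the lowest wild-type array, wild type 2, and the difference of -0.60 ± 0.20 did not pass (limma adjusted p = 0.0947). Without wild type 2 it passed at -0.79 (limma adjusted p = 0.0431).

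**Figure D3:**
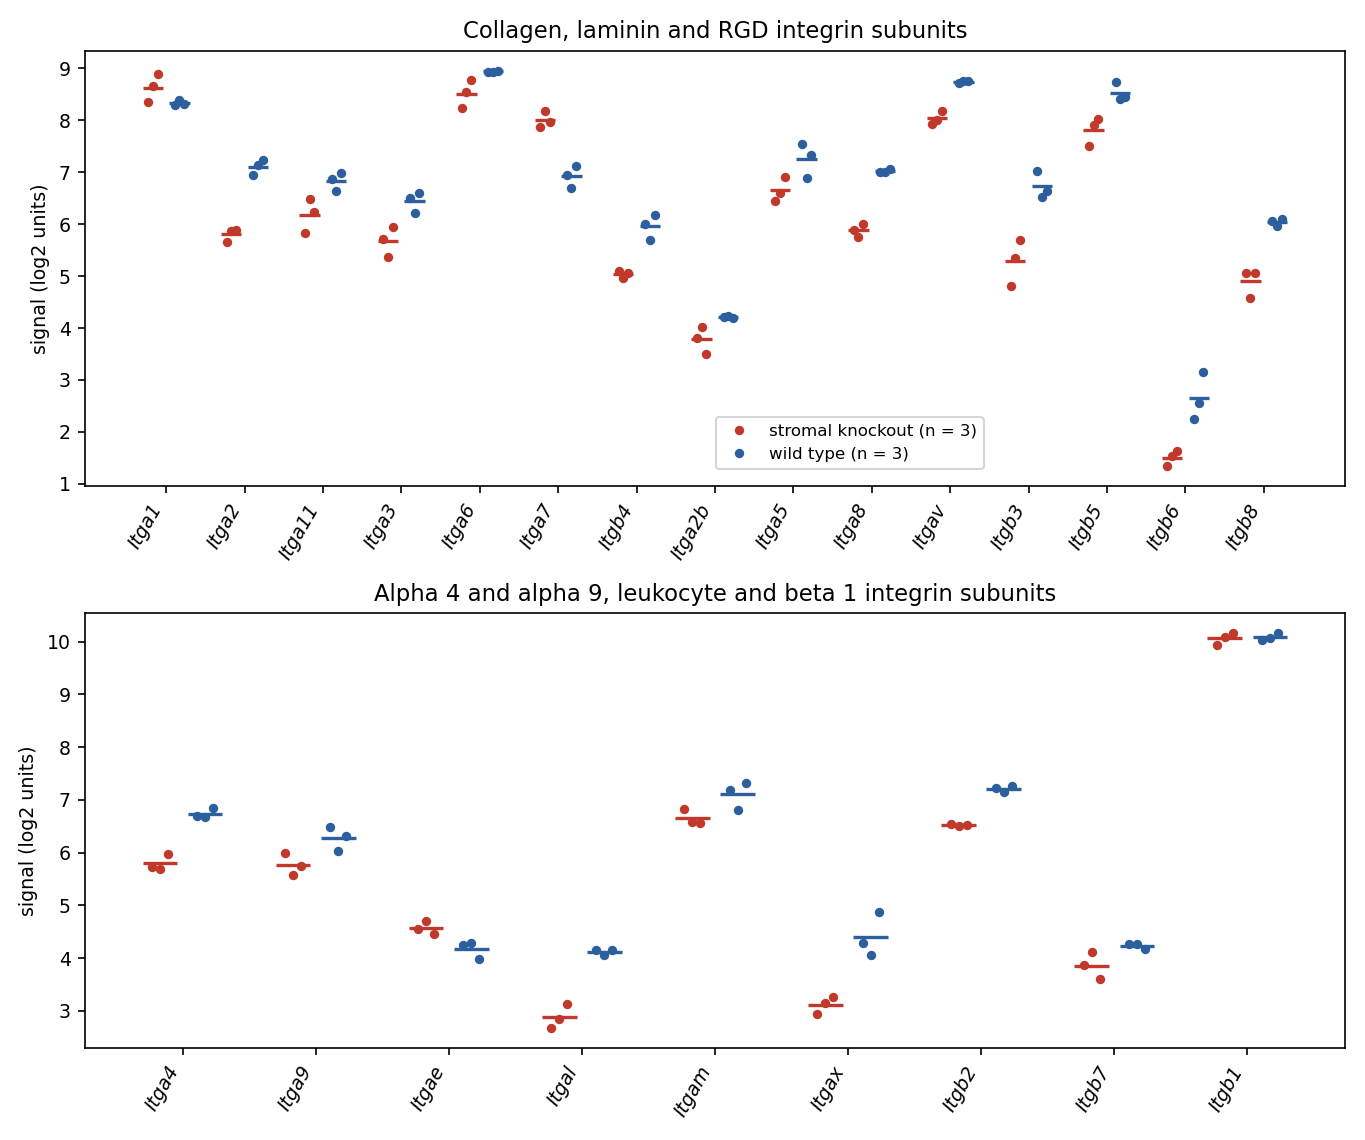
Signal of each integrin subunit on each array in log2 units (y axis), with 3 knockout arrays left and 3 wild-type arrays right for each gene, replicates 1 to 3 from left to right, and bars at the means. Itga7 is the 1 subunit that rose, Itgb1 overlaps near 10.1 in both groups, and the knockout arrays of Itgb3 lie between 4.82 and 5.71, below the wild-type arrays at 6.53 to 7.02.

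Itgb1, the beta 1 chain that joins most of the alpha subunits above, did not differ detectably. It read 9.93, 10.10 and 10.16 log2 units in knockout glands and 10.03, 10.06 and 10.16 in wild-type glands. The groups overlapped. Its difference was -0.02 ± 0.12 (SE, limma adjusted p = 0.926), with a 95% interval of -0.29 to 0.25, so a change of 1.5-fold lies outside the interval in either direction. The sign of this difference turned with arrays centred on their medians (0.07).

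Of the alpha 4 and alpha 9 pair, which bind VCAM1, fibronectin and tenascin C, Itga4 fell. This leukocyte chain, a partner of beta 1 and beta 7, read 5.73, 5.68 and 5.97 log2 units in knockout glands and 6.70, 6.67 and 6.85 in wild-type glands, a fall of 0.94 ± 0.13 (SE, 1.92-fold, limma adjusted p = 0.00402). Itga9, found on smooth muscle, lymphatic and epithelial cells, averaged 5.77 ± 0.20 in knockout glands and 6.27 ± 0.23 in wild-type glands (SD). Its difference of -0.50 ± 0.16 did not pass (limma adjusted p = 0.0925), although its groups did not overlap.

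Among 6 leukocyte integrins, 3 fell, 0 rose in the limma test at the adjusted threshold and 1, Itgae, had an unadjusted p under 0.05 for a rise. At that unadjusted threshold 5 of the 6 were lower, against 13.4% of all genes lower and 13.1% higher. Itgb2, the beta 2 chain common to leukocytes, read 6.55, 6.50 and 6.52 log2 units in knockout glands and 7.23, 7.14 and 7.27 in wild-type glands. Replicates lay close together in both groups, and the fall was 0.69 ± 0.11 (SE, 1.61-fold, limma adjusted p = 0.00666). Itgax, the CD11c chain of dendritic cells and some macrophages, read 2.95, 3.15 and 3.25 in knockout glands and 4.29, 4.06 and 4.87 in wild-type glands, a fall of 1.29 ± 0.21 (2.45-fold, limma adjusted p = 0.00850). Itgal, the LFA-1 chain of lymphocytes and other leukocytes, read 2.67, 2.84 and 3.14 in knockout glands and 4.15, 4.06 and 4.15 in wild-type glands. It fell by 1.24 ± 0.14 (2.36-fold, limma adjusted p = 0.00217), and since knockout 1 read under 2.68 the size may be a lower bound.

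The other leukocyte chains did not pass. Itgam, the Mac-1 chain of macrophages and neutrophils, averaged 6.66 ± 0.15 log2 units in knockout glands and 7.10 ± 0.26 in wild-type glands (SD), with overlapping groups (limma adjusted p = 0.124). Itgb7, the partner of alpha 4 and alpha E, averaged 3.86 ± 0.26 in knockout glands and 4.24 ± 0.06 in wild-type glands (limma adjusted p = 0.152). Itgae, the alpha E chain that binds E-cadherin on epithelium, read 4.56, 4.70 and 4.45 in knockout glands and 4.25, 4.28 and 3.97 in wild-type glands. Its knockout arrays all lay above wild type, unlike those of its partner Itgb7, but the difference of 0.40 ± 0.13 did not pass (limma adjusted p = 0.101).

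Myeloid markers fell beside these chains, and most lymphocyte markers did not pass. Of 11 macrophage and myeloid markers, 7 fell, and the log2 of their summed signal was 11.79 to 11.93 in knockout glands and 12.33 to 12.64 in wild-type glands. Of 10 T and B lymphocyte markers, 3 fell (summed signal 8.10 to 8.34 in knockout glands, 8.74 to 9.11 in wild-type glands). The 3 were Ptprc (CD45), which all leukocytes carry, Cd2 and Cd79b. Ptprc weighs most on that sum, at 7.30 in knockout glands and 8.23 in wild-type glands. The mean log2 signal of the 10 overlapped, at 3.85 to 4.11 in knockout glands and 4.07 to 4.49 in wild-type glands. The T cell chain Cd3e differed by -0.07 and did not pass, and Ms4a1 and Cd3d lay under 2.68 in both groups. Of 7 neutrophil markers, 0 passed the limma test (2 lower and 2 higher at an unadjusted p under 0.05), and S100a8, S100a9, Ly6g and Mpo lay under 2.68 in both groups. The part of leukocyte content in the falls of Itgb2, Itgax, Itgal and Itga4 was not tested.

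The kindlins, close relatives that bind beta integrin tails, differed widely in their changes. Fermt1, kindlin-1, the form of epithelial cells (probe set 17392056), read 3.68, 3.22 and 3.79 log2 units in knockout glands and 6.54, 7.16 and 6.57 in wild-type glands. All knockout arrays lay more than 2 units below all wild-type arrays. It fell by 3.19 ± 0.22 (SE, limma adjusted p = 0.000313), to 10.9% of the wild-type signal, the largest fall among the measured members. The 12 luminal epithelial markers all fell too, with differences from -3.41 to -1.21 log2 units and a median of -2.30. Of the 9 basal markers, 7 fell, and the median of the 9 was -1.88. The part of epithelial content in the fall of Fermt1 was not tested. Fermt2, kindlin-2, the broadly expressed form of stroma and muscle, read 8.76, 8.76 and 8.65 in knockout glands and 8.25, 8.38 and 8.30 in wild-type glands. Its groups did not overlap, and the rise of 0.42 ± 0.11 (1.33-fold, limma adjusted p = 0.0464) lost its call without any 1 of the 6 arrays (limma adjusted p 0.0700 to 0.140). Repeated quantile normalization also lost it (limma adjusted p = 0.0604). Of the 7 alternatives that kept all arrays, the rise of Fermt2 passed in 5 (highest limma adjusted p = 0.115). Fermt3, kindlin-3, the form of blood cells and platelets, read 5.26, 5.16 and 5.65 in knockout glands and 6.00, 5.56 and 5.92 in wild-type glands, with knockout 3 above wild type 2. Its difference was -0.47 ± 0.18, short of the threshold (limma adjusted p = 0.135).

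The start regions of the 3 kindlin genes are shown because these relatives differed by -3.19, 0.42 and -0.47 log2 units in the same glands. Each is the RefSeq window of 300 bases in build GRCm38.p6, from 250 before to 50 after the start of the gene, 5′ to 3′ along the gene. Capitals mark matches on either strand to a GC box (GGGCGG), an E-box (CAGGTG), an ETS core (AGGAAG) or a TEAD site (GGAATG).
Fermt1, chr2:132945987-132946286, minus strand: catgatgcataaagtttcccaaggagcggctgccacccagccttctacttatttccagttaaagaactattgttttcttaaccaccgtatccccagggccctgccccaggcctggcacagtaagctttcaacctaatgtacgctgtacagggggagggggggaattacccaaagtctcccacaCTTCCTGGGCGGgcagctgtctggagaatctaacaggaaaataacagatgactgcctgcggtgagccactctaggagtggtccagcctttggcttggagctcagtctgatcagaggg
Fermt2, chr14:45530016-45530315, minus strand: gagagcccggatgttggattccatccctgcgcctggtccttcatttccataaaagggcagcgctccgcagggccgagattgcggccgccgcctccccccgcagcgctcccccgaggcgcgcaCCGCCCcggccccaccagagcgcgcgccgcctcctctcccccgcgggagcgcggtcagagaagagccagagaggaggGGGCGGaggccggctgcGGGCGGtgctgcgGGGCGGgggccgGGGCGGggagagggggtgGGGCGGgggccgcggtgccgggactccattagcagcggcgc
Fermt3, chr19:7019420-7019719, minus strand: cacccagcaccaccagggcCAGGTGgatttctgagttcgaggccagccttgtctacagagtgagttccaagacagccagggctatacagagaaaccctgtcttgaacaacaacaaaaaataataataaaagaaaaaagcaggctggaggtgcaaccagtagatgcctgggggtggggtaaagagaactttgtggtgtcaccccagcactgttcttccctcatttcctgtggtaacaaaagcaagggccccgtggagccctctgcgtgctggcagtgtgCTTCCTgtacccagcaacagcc

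The windows differ in composition, with 53.0% G and C in Fermt1, 76.7% in Fermt2 and 52.3% in Fermt3. Fermt2 holds 6 GC boxes, Fermt1 holds 1 and Fermt3 holds 0, and 35.7% of 32851 mouse windows of this length hold at least 1. Fermt1 and Fermt3 hold 1 ETS core each (35.4% of windows hold one), and that of Fermt1 abuts its GC box. Fermt3 has the 1 E-box (20.2% of windows), and none of the 3 has the TEAD letters (14.7% of windows). These are letter matches and no measurements of binding, and 28 of the 40 members had a window in the table. A link between these letters and the differences of the kindlins was not tested.

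Src and the scaffolds paxillin and zyxin also fell, while p130Cas did not pass. Src, a tyrosine kinase that acts with FAK at new adhesions, read 4.92, 5.23 and 5.39 log2 units in knockout glands and 6.32, 6.09 and 6.38 in wild-type glands. Its groups did not overlap, and the fall was 1.08 ± 0.16 (SE, 2.12-fold, limma adjusted p = 0.00501). Zyx, zyxin, a LIM protein that gathers where adhesions are under tension, read 7.63, 7.87 and 7.75 in knockout glands and 8.68, 8.19 and 8.61 in wild-type glands. Its fall of 0.74 ± 0.16 (limma adjusted p = 0.0222) held without wild type 2 but not without any other array (limma adjusted p 0.0509 to 0.0791). Of the 7 alternatives that kept all arrays, the fall of Zyx passed in 6 (highest limma adjusted p = 0.0585). Pxn, paxillin, a docking scaffold, read 5.89, 6.17 and 6.29 in knockout glands and 6.87, 6.55 and 6.79 in wild-type glands. It fell by 0.62 ± 0.15 (limma adjusted p = 0.0363). That call was lost without knockout 1, knockout 2, wild type 1 or wild type 3 (limma adjusted p 0.0883 to 0.119). Median centring (0.0519) and the replicate number as a block (0.0776) also lost it. Bcar1, p130Cas, a SRC substrate that is stretched at adhesions, averaged 6.28 ± 0.30 in knockout glands and 6.68 ± 0.26 in wild-type glands (SD), with overlapping groups (limma adjusted p = 0.234).

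**Figure D4:**
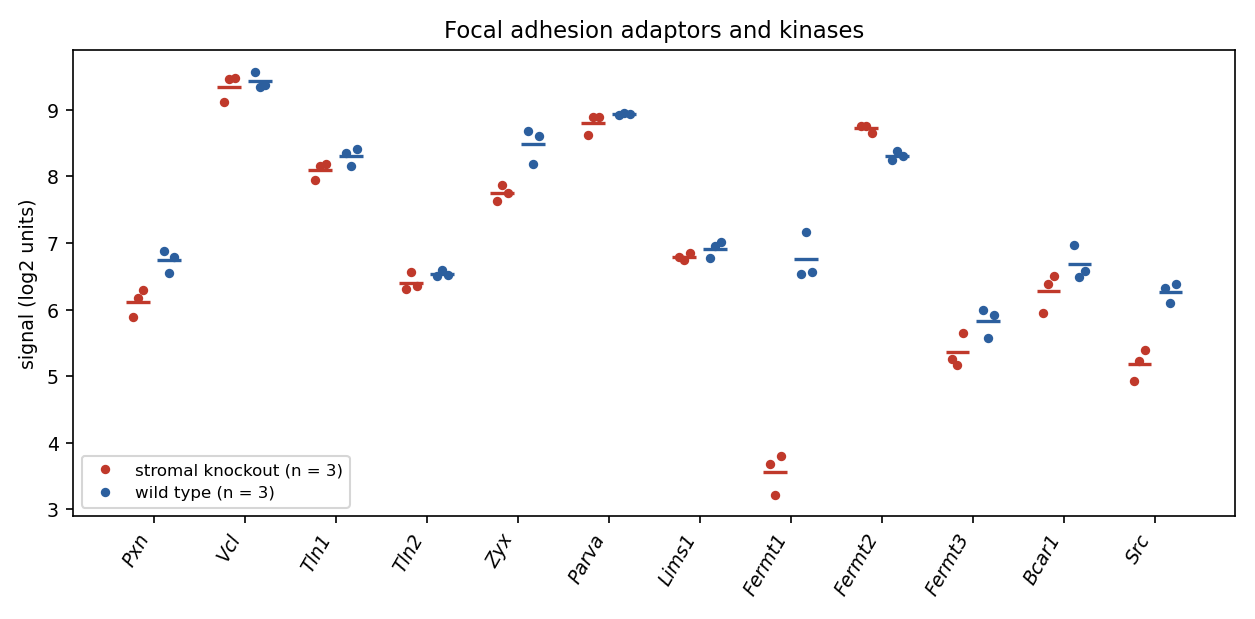
Signal of each measured adaptor and kinase on each array in log2 units (y axis), with 3 knockout arrays left and 3 wild-type arrays right for each gene, replicates 1 to 3 from left to right, and bars at the means. Fermt1 lies at 3.22 to 3.79 in knockout glands and at 6.54 to 7.16 in wild-type glands, Fermt2 lies slightly higher in knockout glands, and the groups of Vcl, Tln1, Tln2 and Lims1 overlap.

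Vinculin, the talins, alpha-parvin and PINCH-1 did not change detectably. Paxillin and zyxin above fell, but a difference between them and these genes was not tested. Vcl, vinculin, which reinforces the talin link under load, read 9.11, 9.46 and 9.47 log2 units in knockout glands and 9.57, 9.34 and 9.38 in wild-type glands. The difference was -0.08 ± 0.14 (SE, limma adjusted p = 0.777), and its sign turned with arrays centred on their medians (0.01). Tln1 and Tln2, the talins that bind beta tails and actin, differed by -0.21 ± 0.13 (limma adjusted p = 0.350) and -0.13 ± 0.12 (0.538). Parva, alpha-parvin, and Lims1, PINCH-1, which sit with ILK in one complex, differed by -0.14 ± 0.12 (0.540) and -0.12 ± 0.12 (0.567). The 95% intervals of these 5 genes and of Itgb1 lie within a 1.5-fold change in either direction. Of the 17 members that did not pass, 15 had an interval within a 2-fold change, the exceptions being Itga11 and Itga5.

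Other genes of the focal adhesion machinery came from a list of 48, of which 44 were measured. Of the 44, 12 fell, 3 rose and 29 did not pass, where 7.2% of all genes fell and 5.05% rose. The median difference of the 44 was -0.18 log2 units, against 0.03 for all genes. The largest fall was of Tns4, a tensin of epithelial cells that lacks the actin-binding part of its relatives. It read 4.26, 4.06 and 5.09 in knockout glands and 7.07, 6.92 and 6.68 in wild-type glands, and fell by 2.42 ± 0.26 (SE, 5.34-fold, limma adjusted p = 0.00163). The part of epithelial content in the fall of Tns4 was not tested. Of the 3 relatives of Tns4 on the list, Tns1 rose by 0.55 ± 0.13 (limma adjusted p = 0.0308) and Tns2 by 0.56 ± 0.12 (0.0196). Tns3 differed by -0.53 ± 0.15 and did not pass (0.0559). Tns1 averaged 11.09 in knockout glands and 10.55 in wild-type glands, and Tns2 averaged 9.52 in knockout glands and 8.96 in wild-type glands. Tns3 averaged 5.59 in knockout glands and 6.12 in wild-type glands, with no overlap. The Tns1 call was lost without knockout 2, knockout 3 or any wild-type array (limma adjusted p 0.0667 to 0.106), and that of Tns2 without knockout 2, knockout 3, wild type 1 or wild type 2 (0.0548 to 0.0730). Kank1, a scaffold at the rim of adhesions, rose by 0.74 ± 0.12 (limma adjusted p = 0.00726), at 7.17, 7.29 and 7.29 in knockout glands and 6.59, 6.57 and 6.38 in wild-type glands.

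The next 3 falls by size on that list were of actin-associated genes. Palld, palladin, a scaffold of stress fibres, read 5.21, 5.63 and 5.84 log2 units in knockout glands and 7.40, 7.05 and 7.22 in wild-type glands, a fall of 1.66 ± 0.18 (SE, 3.16-fold, limma adjusted p = 0.00184). Pdlim7, a PDZ and LIM protein of actin bundles, fell by 1.17 ± 0.17 (2.25-fold, limma adjusted p = 0.00558). Enah, which drives actin growth at leading edges, fell by 1.10 ± 0.11 (2.15-fold, limma adjusted p = 0.00135). In all 3 genes the knockout arrays lay below all wild-type arrays.

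Genes for integrin ligands fell more often than they rose. Of 24 measured of 27 listed, 11 fell and 0 rose in the limma test at the adjusted threshold, with 2 higher and 14 lower at an unadjusted p under 0.05 (13.1% and 13.4% of all genes), and the median difference was -0.56 log2 units. Cdh1, E-cadherin, the ligand of alpha E beta 7 and itself a luminal marker, read 5.93, 6.22 and 6.32 in knockout glands and 8.36, 8.28 and 8.32 in wild-type glands. It fell by 2.16 ± 0.13 (SE, 4.48-fold, limma adjusted p = 0.000212). Falls of Lama1 (laminin alpha 1), Thbs1 (thrombospondin 1) and Tnc (tenascin C) followed, with sizes of 2.10, 1.99 and 1.66. One knockout array of Lama1 read under 2.68, at 2.65, so its size may be a lower bound. Vtn, vitronectin, a ligand of alpha v receptors, averaged 6.06 in knockout glands and 6.08 in wild-type glands (limma adjusted p = 0.962). Fn1, fibronectin, averaged 11.36 in knockout glands and 12.31 in wild-type glands, a fall of 0.95 (limma adjusted p = 0.00387). Postn, periostin, and Npnt, nephronectin, fell by 0.93 (limma adjusted p = 0.00431) and 0.98 (0.0360).

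**Figure D5:**
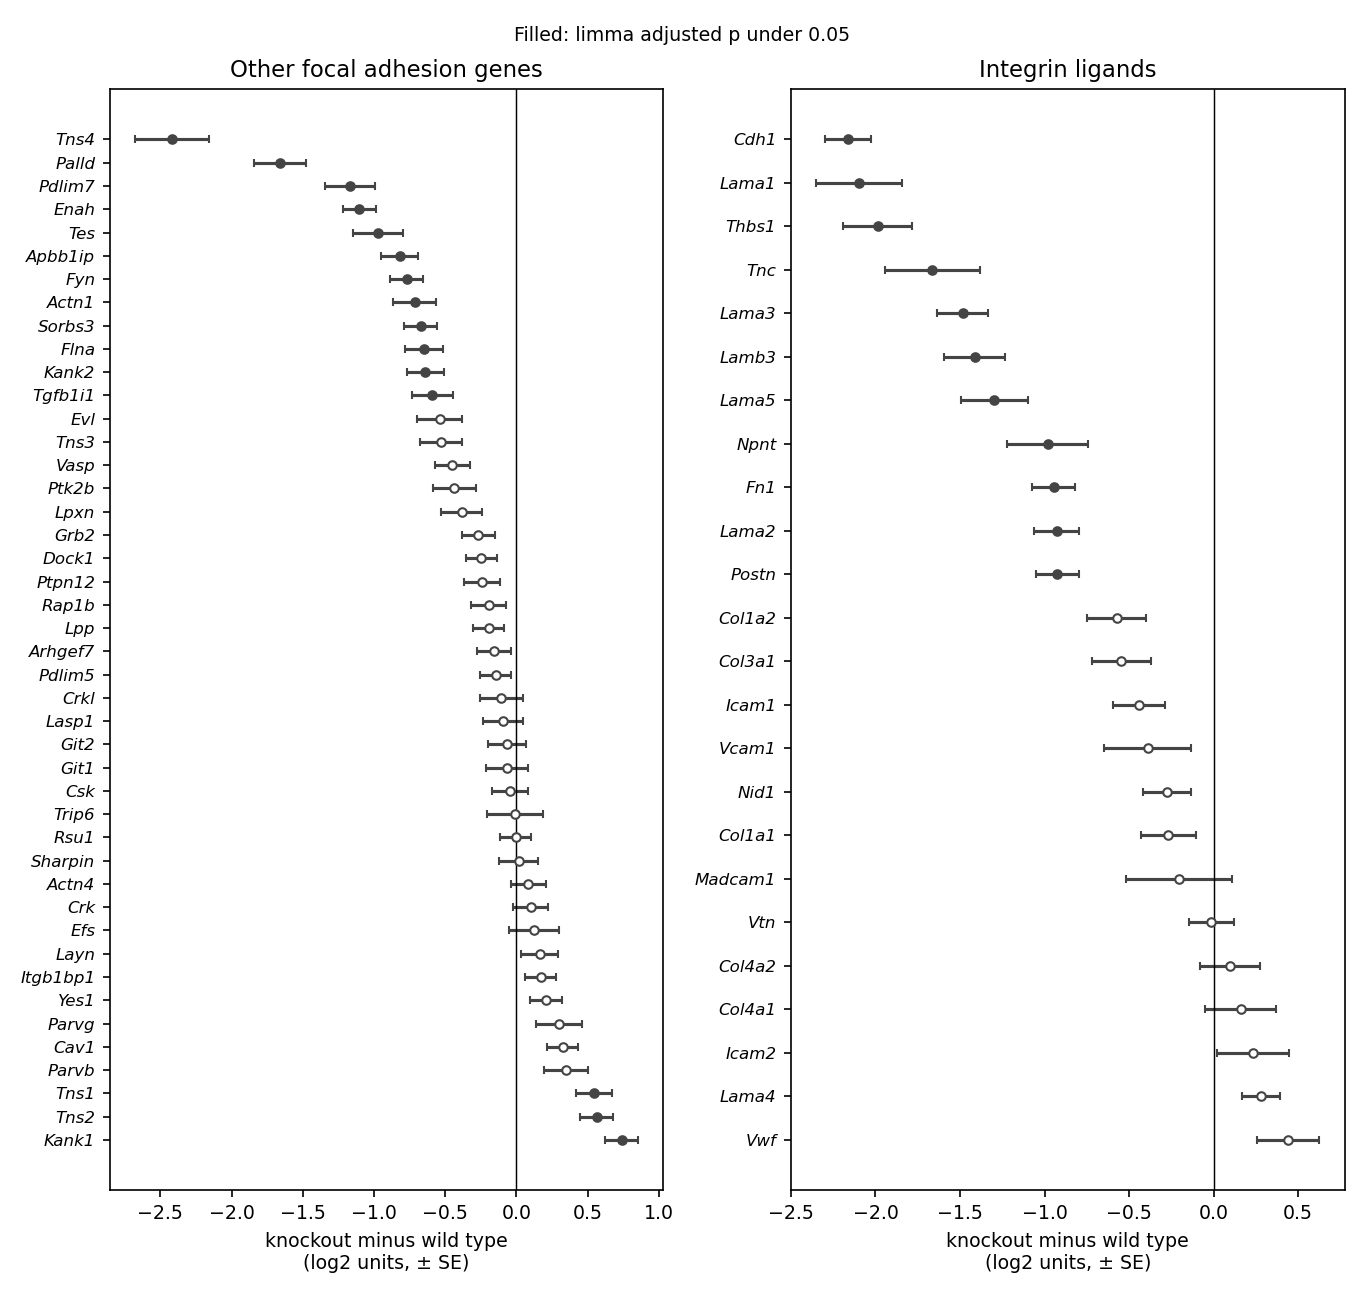
Difference between stromal knockout and wild type in log2 units (x axis, points with standard error bars) for 44 other focal adhesion genes and 24 integrin ligand genes, each ordered by size. Filled points passed the limma threshold. Tns4 at -2.42 and Cdh1 at -2.16 lead the falls, and Kank1 at 0.74, Tns2 and Tns1 are the rises.

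Within each genotype the members tended to rank the arrays alike. Knockout 1 was the lowest knockout array for 21 of the 36 members (58.3%, against 35.4% of all genes), and knockout 3 was the highest for 24 (66.7%, against 36.6%). Wild type 2 was the lowest wild-type array for 23 members (63.9%, against 34.9%), and wild type 3 the highest for 19 (52.8%, against 33.3%). The cause of this ordering was not tested. The members share these arrays and are not independent, so the counts are a description of 6 arrays. Leaving out knockout 1 gave 12 falls and 1 rise among the members, and leaving out wild type 2 gave 17 falls and 1 rise.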

How the data were processed

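The deposited table gives log2 signals by probe set and array, which the authors made with RMA, and limma is also listed, per the submitters' processing notes. RMA subtracts background, equalises the arrays' distributions and summarises probes. That the scale has base 2 was inferred from RMA and from the values. How probes were filtered was not analysed here, and the number of arrays limits the precision.

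Of 41345 probe sets, 23521 had 1 gene symbol in the platform annotation, 1814 had several and 16010 are unnamed here. Where a symbol had several probe sets, the one of highest mean was used, which left 22180 genes. Genotypes were compared with limma 3.58.1 (R 4.3.3), using lmFit and eBayes with no trend on intensity, and Benjamini-Hochberg adjustment covered all genes. The members and gene lists were chosen with earlier results of these data known. The text names the members, Mmp14 and, in both pathway lists, up to 4 rises and 4 falls past the threshold by size. Vtn, Fn1, Postn, Npnt, Tns3 and single markers such as Des and Krt14 were named after their values were seen. Promoter windows came from RefSeq.

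Alternatives covered a low-signal filter (lowest 33% of genes by mean), a trend on intensity, array weights, a repeated quantile normalization, median centring, averaging a symbol's probe sets, the replicate number as a block, and leaving out each array. In data simulated for this comparison over 22180 genes, the fit recovered 59 of 103 genes changed by 1 log2 unit (57.3%) and 86 of 97 changed by 2 units (88.7%). Only 200 genes were changed there, whereas 2717 were called in the data. The adjustment depends on that share, so these rates do not measure recovery in the data.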

Additional observations from a re-analysis of the deposited data

How the results depend on the processing

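All 17 members that fell kept a negative difference in each of the 13 alternatives that gave a value, and 11 passed in every one. With 1 array left out, 12 to 17 members fell and 1 rose. With repeated quantile normalization, 1 member rose. The replicate numbers did not pair the arrays: the deviations of same-numbered arrays correlated at -0.03, -0.05 and -0.03 over all genes, and no array correlated best with its own number. With the replicate block, 14 members fell and 1 rose, 1 other focal adhesion gene rose, and 689 of all genes rose. Over all genes, 1768 rose and 1333 fell with median centring, against 1121 and 1596 as reported, and with 1 array left out 494 to 877 rose and 969 to 1427 fell. Of the other focal adhesion genes, 1 to 3 rose with 1 array left out. Among integrin ligands, 1 rose with an intensity trend. Itga11 passed with the low-signal filter (limma adjusted p = 0.0429) and with an intensity trend (0.0293), Itga6 (0.0465) and Itga5 (0.0470) with that trend, and Itgae with median centring (0.0496). Itgb1 and Vcl, which have no call, turned sign. Itgb1 was at 0.0655 with median centring and between -0.0737 and 0.0449 with 1 array left out, and Vcl was at 0.009 and between -0.14 and 0.0389. The causes were not tested. Itgb6 has no value under the low-signal filter.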
